A study of Drosophila melanogaster with 3 samples.

Results

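Binding of FoxP was described at 9 genes that time insect metamorphosis: the transcription factor genes br, Eip74EF, Eip93F, Blimp-1, Kr-h1, chinmo, crol and ken, and the coactivator gene tai. The genes were taken from a list of names and not by a cut on any measured value. That list was, however, chosen with earlier results of these data known. All 9 of 9 were found among the 13968 protein-coding genes annotated on the chromosome arms. FoxP (also called fd85E) is a forkhead protein of flies, related to the vertebrate FOXP proteins. Chromatin came from entire prepupae of 1 transgenic fly line with eGFP joined to the C-terminal end of FoxP, sexes mixed and age unknown, and was sheared by sonication to 200 to 800 bp and recovered through the tag with anti-GFP. There were 3 biological replicates of that 1 group and no second genotype or stage, so no comparison between conditions could be made. What drives the transgene was not stated in the sources used here. All values describe a tagged protein in mixed tissues, and a site bound in few cells cannot be told apart from one bound weakly in many.

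Metamorphosis is set off by pulses of the steroid ecdysone, which its nuclear receptor turns into a cascade of transcription factors, while juvenile hormone holds the larval state. Within that cascade chinmo is known as a larval factor, br as the pupal specifier and Eip93F as the adult specifier, and Kr-h1 is induced by juvenile hormone and keeps metamorphosis from starting early. Eip74EF encodes ETS-domain proteins and is a classic early puff gene. Blimp-1 is an ecdysone-induced repressor that sets the time at which ftz-f1 comes on in prepupae, and crol is an ecdysone-induced zinc finger gene needed for leg elongation. ken encodes a BTB zinc finger repressor known from the JAK/STAT pathway. tai protein is a p160-type coactivator that also partners the juvenile hormone receptors.

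Each binding region carries a signal value given by the authors, a score without a stated unit, and a summit, the position they gave as its centre. Values set within 1 list rank its regions, and signal values of different lists have no common scale. The list made from the pooled reads of all replicates held 30000 regions, and its 2415 highest, with signal values of 134.19 or more, form the thresholded list. The lists of replicates 1, 2 and 3 held 30000, 24326 and 22698 regions. Like the pooled list, each runs down into background. On the arms 2395 thresholded summits were kept. A summit was counted for a gene when it lay inside the gene or up to 5 kb upstream, and as a promoter summit when it was within 500 bp of 1 of the gene's annotated starts. A thresholded region was counted as held by a replicate when it overlapped, by 1 bp or more, 1 of the 2415 best-ranked regions of that replicate. Coordinates are dm6.

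At 5 of the genes, tai, Eip74EF, ken, Eip93F and crol, there were 19 thresholded summits, and br, Kr-h1, chinmo and Blimp-1 carried none. By gene the counts were 9 at tai, 6 at Eip74EF, 2 at ken and 1 each at Eip93F and crol. Of all protein-coding genes 19.0% carried at least 1. The 9 genes are long, and long genes held one more often. Among the 2549 genes at least as long as ken, the shortest of the 9 at 7170 bp, the share was 38.0%. Of the 5 genes of 50 kb or longer (br, tai, Eip93F, Eip74EF and chinmo) 3 carried a summit, beside 47.3% of all 313 genes of that length. The 4 shorter ones gave 2. With so few genes these counts were not tested, and no excess over the long-gene background is read from them.

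**Figure D1:**
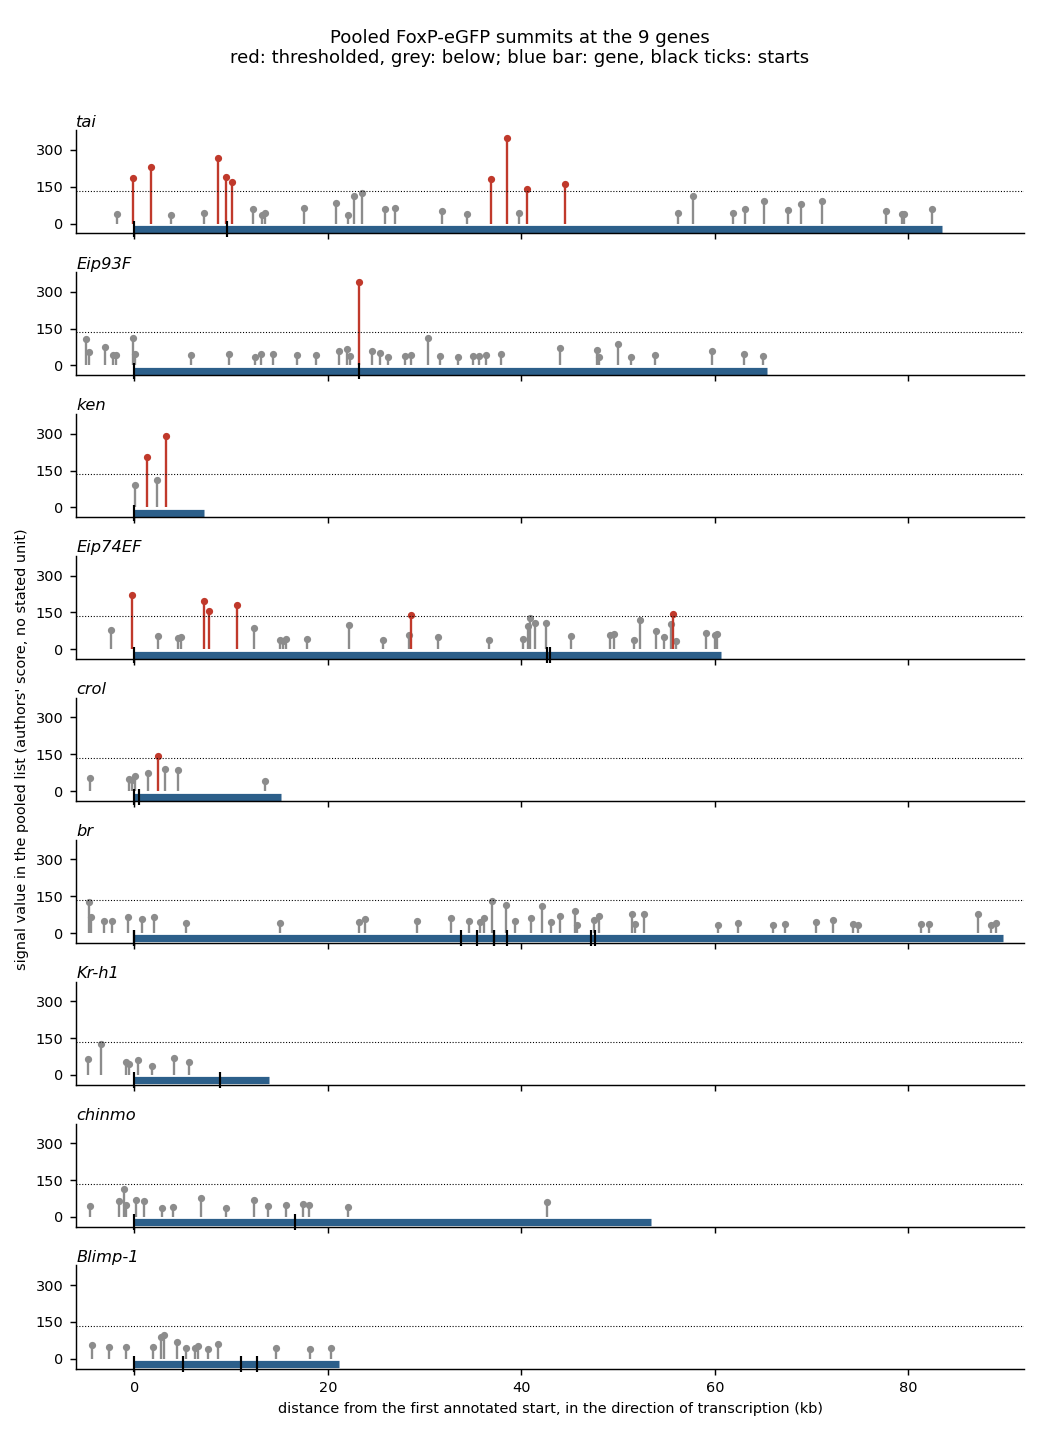
Pooled summits along each of the 9 genes, with distance from the first annotated start in kb on the x axis and the authors' signal value in the pooled list on the y axis. Red stems are the 19 thresholded summits, grey stems the 190 below the threshold of 134.19 (dotted), blue bars the gene and black ticks its starts. tai has 9 red stems in a group near its starts and a group far inside the gene, Eip93F has 1 tall stem at its second start, and br has 43 grey stems and no red one.

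The coactivator gene tai (FBgn0041092, chr2L:9166778-9250211, plus strand, 83.4 kb) held the most summits and the highest signal value of the 9 genes. Its 9 summits fell into 2 groups. One group of 5 lay around its 2 annotated starts, and 4 lay inside a single intron of 42.2 kb, 27243 to 34977 bp past the nearest start. That intron is the second of tai-RG. Of the 9, 8 were held by all replicates. Only 6 of the 13968 genes carried more thresholded summits than tai, and 10 carried as many or more, tai included.

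The strongest region at tai was in the long intron (chr2L:9205074-9205489), 28924 bp past the nearest start, with a pooled signal value of 350.15 and rank 307. It ranked 222 in replicate 1 (signal value 148), 1001 in replicate 2 (73.9) and 154 in replicate 3 (133). Replicate 2 thus placed it lower than the other replicates did. The other regions of the intron had pooled signal values of 179.97 (chr2L:9203393-9203808), 139.86 (chr2L:9207116-9207531) and 162 (chr2L:9211127-9211542). The one at 139.86 was the weakest of all tai summits. It ranked 2085, 2598 and 3553 in replicates 1, 2 and 3, and was held by replicate 1 alone.

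Both starts of tai had a promoter summit. The one at the upstream start (chr2L:9166428-9166843) lay 142 bp before it, with a pooled signal value of 186 and ranks of 1270, 1340 and 2412 in replicates 1, 2 and 3. It was also within 500 bp of a start of CG9586, which is read the other way and has the nearer start, so it cannot be given to tai alone. The one at the second start (chr2L:9175997-9176412) lay 153 bp before it, with 189 and ranks of 782, 2186 and 1378. This start is used by tai-RC, tai-RE and tai-RF. On either side of it were a region 960 bp upstream (chr2L:9175190-9175605, signal value 268, ranks 474, 806 and 730) and one 528 bp downstream (chr2L:9176678-9177093, 169, ranks 2361, 1763 and 1199). The 3 summits at the second start were 807 and 681 bp apart. The last of the group, 1684 bp past the upstream start (chr2L:9168254-9168669) and also within 5 kb upstream of CG9586, had a signal value of 228 and ranks of 501, 1602 and 991. Ranks of 2412 here, and of 2415 in replicate 1 for the intronic region at 179.97, lie at the very edge of what was counted as held.

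The windows of 60 bp to either side of 3 tai summits are printed to show how unlike each other the bound sequences of 1 gene were. Letters are from the plus strand of the dm6 genome, with capitals for the motifs that were searched (on either strand: GAGAG, known from GAGA factor, and the forkhead letters, which are TGTTTAC, the shared core, with TATTTAC as one variant and TGTTTAT as another). The strongest window holds GAGAG runs and no forkhead letters, the region before the second start holds TGTTTAT once, and the weakest holds TATTTAC 2 times in a stretch rich in A and T.
tai intron, pooled rank 307, chr2L:9205222-9205342: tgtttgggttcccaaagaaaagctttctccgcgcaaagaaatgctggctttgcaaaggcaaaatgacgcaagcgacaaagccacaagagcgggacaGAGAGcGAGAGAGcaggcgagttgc
tai 960 bp before the second start, pooled rank 601, chr2L:9175338-9175458: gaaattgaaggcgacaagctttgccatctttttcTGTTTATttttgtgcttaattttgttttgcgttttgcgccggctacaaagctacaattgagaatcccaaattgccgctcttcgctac
tai intron, pooled rank 2239, chr2L:9207264-9207384: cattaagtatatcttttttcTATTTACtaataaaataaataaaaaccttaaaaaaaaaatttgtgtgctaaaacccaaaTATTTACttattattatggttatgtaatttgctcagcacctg

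Eip74EF (FBgn0000567, chr3L:17558672-17619325, minus strand, 60.7 kb) was bound at its distal start and not, above the threshold, at its proximal ones. The distal start gives the long transcripts of the A form of the protein, which high ecdysone induces, and the 2 proximal starts those of the B form. The distal summit (chr3L:17619329-17619744) lay 212 bp upstream, also within 5 kb upstream of the oppositely read anchor, with a pooled signal value of 221 and rank 909. It ranked 1162 in replicate 1 (signal value 75.98), 1895 in replicate 2 (53.9) and 446 in replicate 3 (89.1), and all 3 replicates held it. Within 500 bp of the proximal starts the best region was 186 bp upstream of that of Eip74EF-RB, with 108 and rank 3595. It ranked 3547, 2173 and 5634 in replicates 1, 2 and 3, so replicate 2 alone had it among its 2415 best. A stronger region, also below the threshold, lay 1839 bp upstream of the same start (chr3L:17578257-17578672), with 129 and rank 2614. That region ranked 1378, 5537 and 1754 in replicates 1, 2 and 3, so replicates 1 and 3 had it among their 2415 best. The gap between the starts is a description of ranks within lists and was not tested.

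Of the 5 intronic summits of Eip74EF, 3 lay in its first intron of 15.3 kb. The best of them (chr3L:17611943-17612358) was 7174 bp past the distal start, with 195 and ranks of 909, 1143 and 1275 in replicates 1, 2 and 3, the most even of the gene. A second summit (chr3L:17611365-17611780, signal value 155) was 578 bp away, and the last (chr3L:17608529-17608944, 181) 2836 bp further in. These were held by 2 replicates each, without replicate 3 for the one at 155 and without replicate 1 for the one at 181. The remaining 2 were the weakest, with 140.49 in the fifth intron (chr3L:17590504-17590919) and 142 in the last intron (chr3L:17563453-17563868). The summit in the fifth intron ranked 1523 and 1915 in replicates 1 and 2 but 7886 in replicate 3. That in the last intron ranked 1494 in replicate 1 and 4855 in replicate 2, and replicate 3 had no region on it, its overlap there coming from a neighbouring region. The replicates thus shared the distal start and the best first-intron site of Eip74EF, 2 of 6 summits, and split over the others.

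Windows of the distal Eip74EF summit and of its best intronic summit are given in the same way, because both hold GAGAG on 1 or both strands and neither holds the forkhead letters. The plus strand is printed, so GAGAG on the minus strand appears as CTCTC.
Eip74EF distal promoter, pooled rank 909, chr3L:17619477-17619597: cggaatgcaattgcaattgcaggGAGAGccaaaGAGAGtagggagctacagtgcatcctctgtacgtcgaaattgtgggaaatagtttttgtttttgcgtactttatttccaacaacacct
Eip74EF first intron, pooled rank 1173, chr3L:17612091-17612211: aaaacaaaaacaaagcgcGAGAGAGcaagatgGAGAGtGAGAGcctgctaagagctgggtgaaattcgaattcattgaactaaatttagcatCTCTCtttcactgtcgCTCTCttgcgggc

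Eip93F (FBgn0264490, chr3R:21949114-22014539, plus strand, 65.4 kb), the adult specifier, had 1 thresholded summit, and it was the strongest promoter summit of the 9 genes. It lay 75 bp upstream of the second of its 2 starts (chr3R:21972096-21972511), which serves Eip93F-RA and Eip93F-RC, with a pooled signal value of 342 and rank 330. It ranked 262 in replicate 1 (signal value 139.97), 705 in replicate 2 (87.7) and 245 in replicate 3 (114). All replicates held it, and in each it was the best region of the gene. The first start, that of Eip93F-RB and 23190 bp before the summit, had a region 87 bp upstream with 113 and rank 3313. That region ranked 4282, 6393 and 1739 in replicates 1, 2 and 3, and was among the best 2415 in replicate 3 only. Of the 39 pooled regions at Eip93F 38 stayed below the threshold. The printed window of the bound promoter holds none of the searched letters, although GAGAG lay within 100 bp of the summit.
Eip93F second promoter, pooled rank 330, chr3R:21972244-21972364: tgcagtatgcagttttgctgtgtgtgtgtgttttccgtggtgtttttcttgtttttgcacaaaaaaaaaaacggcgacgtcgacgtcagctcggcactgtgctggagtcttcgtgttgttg

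The zinc finger gene crol (FBgn0020309, chr2L:11794327-11809438, minus strand, 15.1 kb) had 1 thresholded summit, in its first intron, 2026 bp past the nearest start (chr2L:11806738-11807153). Its pooled signal value was 144, rank 2133. It ranked 2688 in replicate 1 (signal value 50.5), 1862 in replicate 2 (54.5) and 2250 in replicate 3 (44.2). Replicate 1 did not hold it, and its own best region at crol, rank 1789, was another, 905 bp past the nearest start. With replicate 2 or replicate 3 left out, crol carried no summit held by the remaining ones. The count of genes with a thresholded summit was then 4 in place of 5. The starts of crol had at most 60.06 (rank 9906). The crol window is a run of CTCTC, the reverse complement of GAGAG.
crol first intron, pooled rank 2133, chr2L:11806886-11807006: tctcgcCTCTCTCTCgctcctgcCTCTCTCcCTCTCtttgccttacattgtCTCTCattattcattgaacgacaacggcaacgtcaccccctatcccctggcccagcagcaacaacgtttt

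Among those 5 genes ken is the shortest and had the most thresholded summits per 10 kb, a density that rests on only 2 summits in a short span. The gene (FBgn0011236, chr2R:23870273-23877442, plus strand, 7.17 kb) had 2 thresholded summits 2010 bp apart in its first intron of 4.04 kb, which is 1.64 per 10 kb of gene and upstream sequence, against 1.02 at tai and 0.914 at Eip74EF. The stronger (chr2R:23873371-23873786) was 3306 bp past the start with a pooled signal value of 289.58 and rank 486. It ranked 851 in replicate 1 (signal value 86.9), 465 in replicate 2 (105) and 348 in replicate 3 (97.8), so all replicates held it. The other (chr2R:23871361-23871776), 1296 bp past the start, had 203 and ranked 2536, 734 and 1316, which leaves it just outside the best 2415 of replicate 1. Both also lie within 5 kb upstream of the oppositely read Mtpbeta, and the stronger one of TM4SF, although ken has the nearest start. The promoter region of ken itself was below the threshold, with 92.05 and rank 4778, and ranked 2418, 18976 and 9814 in replicates 1, 2 and 3.

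**Figure D2:**
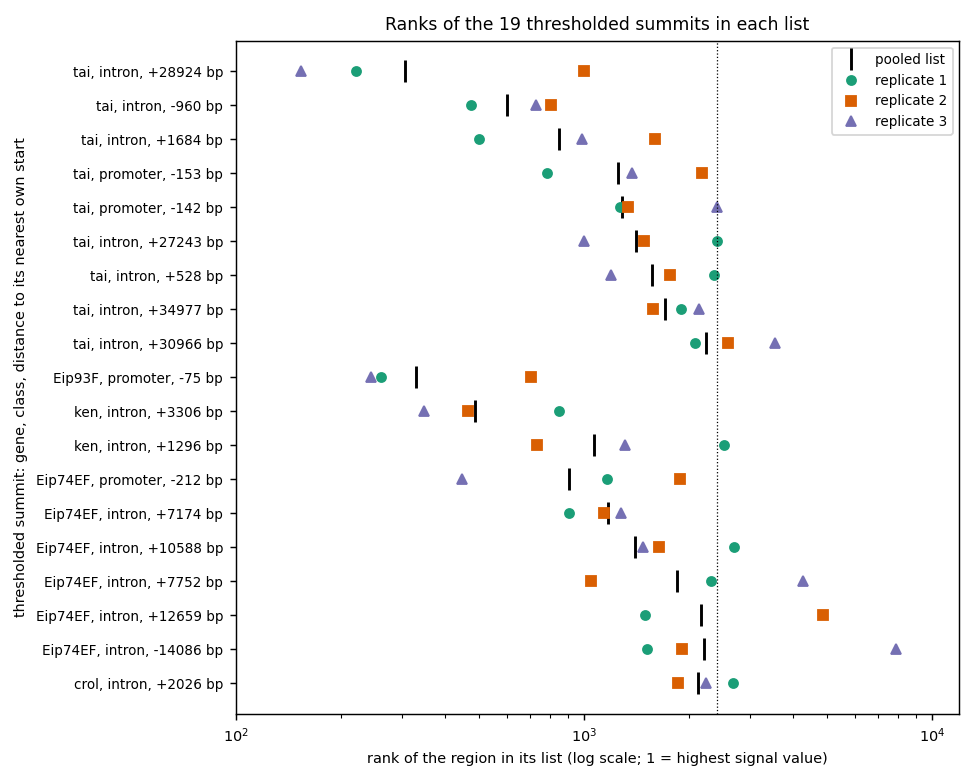
Ranks of the 19 thresholded summits on a log x axis, 1 row per summit with gene, class and distance to its nearest own start, in the pooled list (bar) and in replicates 1 (circle), 2 (square) and 3 (triangle). The dotted line is rank 2415. The best summits of tai, Eip93F and ken stay left of it in all lists, while 3 Eip74EF summits have a replicate far to its right or none at all.

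The pupal specifier br (FBgn0283451, chrX:1575132-1664869, plus strand, 89.7 kb, 9 starts) is the longest of the genes and had 43 pooled regions, all below the threshold. The best of them came close to it. That region (chrX:1611886-1612301) was 214 bp upstream of the start of br-RP and 247 bp upstream of the start that 8 transcripts share, with a pooled signal value of 130.77 and rank 2538. It ranked 2383 in replicate 1 (signal value 53.6), 6452 in replicate 2 (28.1) and 2928 in replicate 3 (38.7). Replicate 1 alone had it among its best 2415. A region 113 bp before the start of br-RI had 114 and rank 3288, and ranked 4626, 2537 and 3625. The 2 most upstream starts and that of br-RH had no pooled region within 500 bp. A region 4663 bp upstream of the gene (126, rank 2692) ranked 3446, 3487 and 1808 in replicates 1, 2 and 3, so replicate 3 placed it highest. The oppositely read Mur2B overlaps br, and all 43 regions also lay inside Mur2B or up to 5 kb upstream of it.

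Kr-h1 (FBgn0266450, chr2L:6082603-6096498, plus strand, 13.9 kb), the juvenile hormone response factor, had 8 pooled regions. The best was 3472 bp upstream (chr2L:6078923-6079338) with 124 and rank 2793, and ranked 5122, 2256 and 3655 in replicates 1, 2 and 3. The next was far lower, with 67.9. At the larval factor gene chinmo (FBgn0086758, chr2L:1651258-1704682, plus strand, 53.4 kb) the best of 17 was 1072 bp upstream (chr2L:1649978-1650393) with 111 and rank 3437. It ranked 5270 in replicate 1, 1460 in replicate 2 and 8667 in replicate 3, so replicate 2 stands apart there. The best chinmo region of replicate 3, rank 2373, was another, also upstream of the gene. Blimp-1 (FBgn0035625, chr3L:5630983-5652094, plus strand, 21.1 kb) had the weakest best region of the 9 genes. That region, 1 of 15 (chr3L:5633860-5634275), had 98.39 and rank 4272 and lay in an intron. It ranked 8587 in replicate 1 and 3289 in replicate 2. No region of replicate 3 held its summit at chr3L:5634068 or had a summit within 200 bp of it. The best Blimp-1 region of replicate 3, rank 6220, had its summit nearby at chr3L:5634377. No start of Kr-h1, chinmo or Blimp-1 had a region above 67.8 within 500 bp. A region below the threshold is not shown to be unbound.

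**Figure D3:**
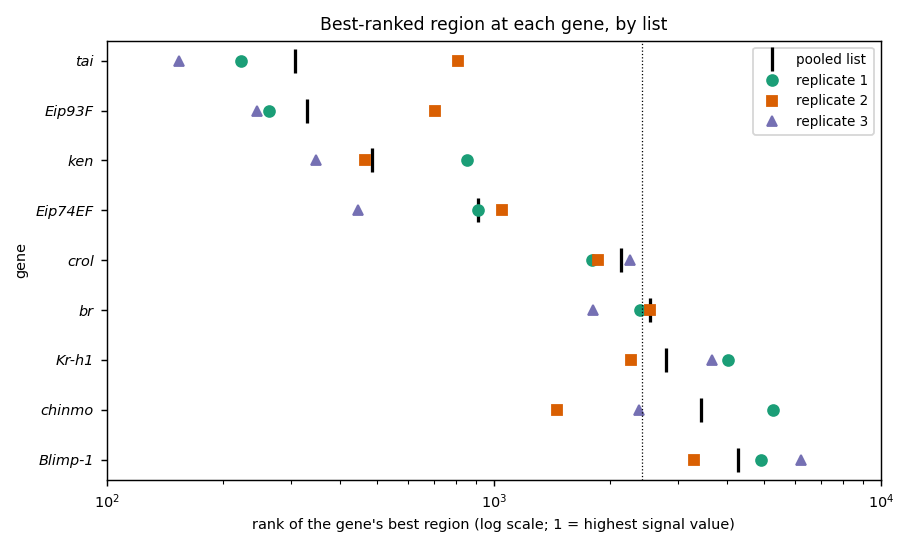
Rank of the best region at each gene on a log x axis, 1 row per gene, in the pooled list (bar) and in replicates 1 (circle), 2 (square) and 3 (triangle), with rank 2415 dotted. tai, Eip93F, ken, Eip74EF and crol lie left of the line in every list, and Blimp-1 lies right of it in all 4.

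The genes were also counted in the list of each replicate alone. Among the 2415 best-ranked regions of replicate 1, 6 of the 9 genes had a summit, beside 19.2% of all protein-coding genes. In replicate 2 it was 7 genes (19.8% of all) and in replicate 3 also 7 (19.5%). tai had 9, 8 and 9 such summits in replicates 1, 2 and 3, Eip74EF 7, 7 and 5, and ken 1, 2 and 3. Eip93F had 1, 1 and 2 and crol 1 in each. br had 1, 0 and 1, chinmo 0, 1 and 1, Kr-h1 0, 1 and 0, and Blimp-1 0 in every replicate. Blimp-1 was therefore the only one of the 9 with none in any replicate. Of the 19 thresholded summits 12 were held by all 3 replicates (63.2%), beside 59.1% of thresholded regions on the arms. Of the others 6 were held by 2 replicates and 1 by 1. Genes with a summit held by all 3 replicates were tai, Eip74EF, Eip93F and ken, 4 of 9, beside 12.1% of all genes. The shares of all genes in this paragraph are over genes of any length. They were not computed for long genes alone, so no excess is read from them. The ranks of the 19 summits in pairs of replicates had Spearman correlations of 0.300 (replicates 1 and 2, 19 summits), 0.598 (1 and 3, 18 summits) and 0.513 (2 and 3, 18 summits), given as descriptions of summits from shared libraries that the pooled reads selected.

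The thresholded summits of these genes were mostly intronic, and most of the intronic ones were at tai and Eip74EF. Of the 19 summits 15 (78.9%) were in introns and 4 (21.1%) in promoters, beside 38.0% and 45.5% of the 2395 thresholded summits on the arms. Among the 9 genes, 3 had a promoter summit (tai, Eip74EF and Eip93F), beside 8.96% of all genes, and it was found at 4 of their starts out of 27 starts in all 9. The share of 8.96% was not matched for gene length or number of starts. None of the 19 was in a coding exon or UTR. First introns held 10 and second introns 4, promoter summits inside an intron included. The median distance to the nearest start of any protein-coding gene was 3306 bp, against 701 bp for all thresholded summits, and 9 (47.4%) were over 5 kb from any start, against 21.0%. The part of gene length in this share was not tested. Pooled signal values at the 19 had a median of 186, against 192 for all, and ran from 139.86 to 350.15, against a highest value of 2044.06 on the arms. All 19 regions had the modal width of 416 bp. In the 19, replicate summits lay a median of 17.0 bp from the pooled summit, against 14.0 bp over all.

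With regions below the threshold included, the genes held 209 pooled summits, a median of 4.47 per 10 kb of gene and upstream sequence. The median was 1.69 over all protein-coding genes, 2.63 over those at least as long as ken and 2.24 over those of 50 kb or longer. The pooled list runs down into background, and some of its regions overlap one another. These medians therefore count listed regions and not bound sites, and no excess of binding is read from them. Among the 9 the density ran from 2.91 at chinmo to 5.74 at Blimp-1, so the gene with the densest regions was the one with the weakest best region. The best region below the threshold had a signal value of 129 at Eip74EF (rank 2614), 124 at tai (2787), 113 at Eip93F (3313), 111 at ken (3475) and 88.8 at crol (5081). Across the 9 genes the last summit inside the threshold was that of tai at rank 2239 and the first outside it that of br at rank 2538. Of the 209, 106 (50.7%) overlapped a region of every replicate list, beside 38.3% of all pooled regions on the arms.

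**Figure D4:**
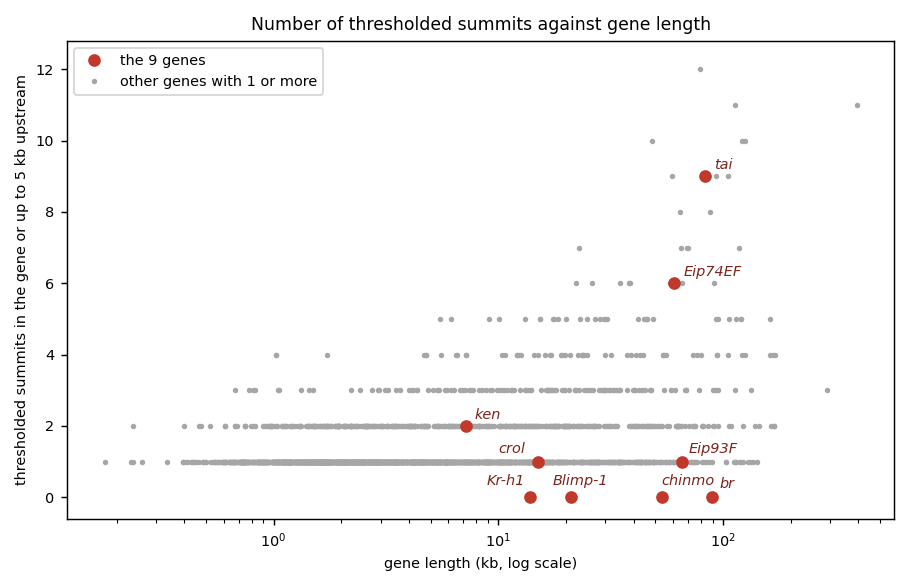
Thresholded summits in the gene or up to 5 kb upstream (y axis) against gene length in kb (log x axis) for the 9 genes (red) and the other protein-coding genes with 1 or more (grey). tai with 9 and Eip74EF with 6 stand out among the red points, and br, the longest of the 9, lies at 0.

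For each summit, the 100 bp to either side were scanned on both strands for known motifs. Any of the forkhead letters spelled out at tai was within 3 of the 19 windows (15.8%), beside 20.4% of all thresholded summits. All 3 were at tai, with TATTTAC at the upstream promoter and in the weakest intronic region, and TGTTTAT before the second start. TGTTTAC was at 0 of the 19 and at 5.34% of all. GAGAG, letters that GAGA factor binds, was at 11 of the 19 (57.9%), beside 33.3% of all. In intronic summits alone it was at 8 of 15 (53.3%), beside 30.6%. At the 1 summit that held both, it did not overlap the forkhead letters. By gene it was at 4 of 6 Eip74EF summits, 5 of 9 tai summits, at crol and at Eip93F, and at neither ken summit. Median GC content of the windows was 42.3%, against 36.8% for all, so composition differed too, and its part in the GAGAG share was not tested. The juvenile hormone response core CACGCG was at 1 summit (5.26%, beside 4.30%), in the fifth intron of Eip74EF. The nuclear receptor motif AGGTCA (2.92% of all), the E-box CACGTG (2.30%), the ETS core CCGGAAG (0.626%) and the DREF site TATCGATA (1.84%) were at none of the 19. The ecdysone response element palindrome was at none of the 2395. A match is a description of letters and not a shown site.

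Other genes of the hormone pathways were counted over 38 names in 6 lists. Of these, 23 (60.5%) had a thresholded summit, beside 19.0% of all protein-coding genes, and 11 a promoter summit, beside 8.96%. All 10 nuclear receptor genes had a thresholded summit, led by Hr4 (signal value 873), Eip78C (617), Eip75B (544) and Hr3 (204). Their median length was 36.6 kb, and of all genes at least as long as ken 38.0% had one. Of 9 other ecdysone response genes 7 had one. The highest were Sox14 (723), MsrA (listed as Eip71CD, 449), E23 (421), which encodes a transporter of the ABC family, and ImpL2 (293), which encodes a binding protein of insulin-like peptides. Among genes of ecdysone synthesis and turnover 1 of 8 had one, sad (134.85), with its summit upstream. Of 4 juvenile hormone genes 1 did, gce (184), a receptor gene of that hormone. The summit lay in its promoter. The other receptor gene of that hormone, Met, had 42.6 at best. The synthesis and turnover genes had a median length of 2.59 kb and the juvenile hormone genes one of 4.07 kb, so the lists differed in length too, and its part in the counts was not tested. Of 2 receptor cofactor genes Smr had one (268), a corepressor gene, and trr had no pooled region at all. Of 5 other temporal regulators 3 had one, Syp (841), mamo (218) and ab (188), while Imp reached 115. Syp and Imp encode RNA-binding proteins with opposed time courses in neural stem cells.

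By the number of thresholded summits over the same span, 6 genes had more than tai, namely sbb with 12, Eip75B and kirre with 11 each, and Raf, Svil and CG1677 with 10 each. Tet, CG43658 and psq had 9, as many as tai. All counts are from 1 list of pooled reads. Per 10 kb tai had 1.02 thresholded summits. Of these 9 genes, Raf (1.87), sbb (1.43) and psq (1.40) had more per 10 kb. Eip75B (0.926), Tet (0.919), CG43658 (0.818), Svil (0.790), CG1677 (0.771) and kirre (0.276) had fewer.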

How the data were processed

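Peak lists of 3 replicates, of their pooled reads and of a thresholded part of the pooled list were used, 5 lists in dm6 coordinates. The authors made each replicate list from that replicate's aligned reads and 1 further file common to all lists, whose kind the sheets do not state, and the thresholded list by an irreproducible discovery rate step, per the file sheets. No GFP-only or input library was analysed here. Names of the aligner and the peak caller were not given in the sources used here. Signal values are the authors' own score per region, with no stated scale. The deposited −log10 q-values, at most 2.07 in the thresholded list and equal to that maximum at 14 of the 19 summits, were not used for ranking. The depth of each library is unknown. Lists in dm3 were not used, and 20 thresholded mitochondrial regions were set aside.

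Gene models came from Ensembl release 115 (BDGP 6.54), and sequences from the RefSeq release 6 genome, whose arms were at least as long as the last region in every list. Replicate values are those of the region holding the pooled summit, or of the nearest summit within 200 bp. Shares over all genes or regions are descriptions, and no test was run. Python 3.11.15, numpy 2.4.6 and pandas 2.3.3 were used. On simulated data the overlap step returned all planted shared regions. These were exact copies and every region was taken, so partial overlap and the rank limit were not tried. The assignment of summits to genes was not tested either, because planted positions were drawn from the spans they were checked against.

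The genes, the pathway lists, the motifs and the alternatives were chosen with earlier results of these data known. All 9 genes are named, with every thresholded summit and at least the best region of each gene without a thresholded summit. Of each pathway list up to 4 genes with a thresholded summit are named in order of signal value. Of all genes the 5 with the most summits are named, ties broken by summed signal value. Names of Met, Imp, trr, CG1677, Tet, CG43658 and psq, and of starts and regions below the threshold beyond those, were chosen after their values were seen, as was the background of genes by length. Symbols of 3 pathway genes were replaced by those of the annotation.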

Additional observations from a re-analysis of the deposited data

How the results depend on the processing

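The 9 genes kept their counts within 1.5 times under most alternatives. The 5 genes with a thresholded summit were 4 to 5 and the 3 with a promoter summit 2 to 3 under all of them. The counts were 4 and 2 with only the 1207 best-ranked thresholded regions. These held 8 of the 19 summits and 7 of the 12 held by all replicates, and 11.5% of all genes had a summit among them. Restricting to regions held by all 3 replicates left 12 summits and 12.1% of all genes. With 0.5 times as many best-ranked regions per replicate 4 summits were held by all, and with 2 times as many 17. These changes follow from shorter or longer lists. Leaving out 1 replicate gave 13 to 15 summits, 4 to 5 genes, and 13.4% to 14.0% of all genes, since only regions held by both others were kept, with calls still from pooled reads. Counting 1 kb upstream gave 19 summits and 13.1% of all genes, and the gene body alone 17 summits and 7.65%. The background rose to 38.0% for genes at least as long as ken and 47.3% for those of 50 kb or longer, both chosen after seeing the data. Of the 209 pooled summits 106 were in every replicate list. Unknown depth, 1 tagged line, mixed tissues and the absence of a second group limit what can be said.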
